A study of Mus musculus with 15 samples.

Results

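Of 36 genes listed as markers of Kupffer cells and of recruited macrophages, 35 were measured in mouse liver and are described here, out of 22180 genes measured in all. They were taken as listed, where the probe table of the array gives the gene as the single symbol of a transcript cluster, a set of probes read as 1 value. Cd9 alone among these genes had more than 1 such cluster, and the brighter of its 2, by the mean of the 15 arrays, was used. Spp1 was not matched and is not analysed here. By role the 35 genes comprise 8 genes of resident Kupffer cells, 3 complement C1q genes, 12 genes shared by most macrophages, 6 genes of recruited monocytes and adhesion, and 6 genes of lipid-associated macrophages.

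Kupffer cells are the macrophages that live in the sinusoids of the liver, where they clear particles, bacteria and old red cells from portal blood. When they are lost or the liver is injured, monocytes enter from the blood and become macrophages that at first lack the resident markers Clec4f and Timd4. In livers loaded with fat, part of the entering cells take up lipid and express Trem2, Gpnmb and other lysosomal and matrix genes, a state known as the lipid-associated macrophage.

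RNA came from whole liver of 15 male ApoE*3Leiden.CETP mice, which carry human APOE*3-Leiden and CETP genes and so have a more human-like lipoprotein profile. The 6 RYGB mice had Roux-en-Y gastric bypass, in which food runs past most of the stomach and the upper intestine. The 4 BWm mice had sham surgery and were matched in body weight to the RYGB mice, and the 5 Sham AL mice had sham surgery and ate ad libitum. All groups, the sham groups included, carried both transgenes and ate the same diet of 60% fat and 0.25% cholesterol for 6 weeks before surgery, after 2 weeks of acclimation. Their age is given as 9 to 12 weeks in the growth protocol, they lived singly after surgery, and livers were taken 20 days after it. A chow-fed or unoperated group was not analysed here, and the sources used here do not say how body weight was matched.

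Each liver was read on 1 array, and values are log2 signals, so that a difference of 1 is a doubling. Array medians lay between 3.89 and 4.02. Levels are compared within a gene only, because probes of different genes differ in brightness. The hepatocyte marker Alb (albumin) averaged 12.89 ± 0.04 on RYGB, 12.9 ± 0.02 on BWm and 12.87 ± 0.04 on Sham AL arrays (SD, n = 6, 4 and 5), and the Kupffer cell marker Clec4f lay between 7.93 and 8.8 on all 15. The array of Sham AL replicate 4 stood apart: it measured 10.37 for Cyp11b1, an adrenal enzyme, against 2.39 to 3.22 on the other 14 arrays, and 11.89 for Ucp1, the uncoupling protein of brown fat, against 3.31 to 4.54. Where leaving it out ended a call against Sham AL or turned a median, the value without it is given too. The replicates are labelled biological, and the sources used here give no cages or surgery days.

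More of the macrophage genes lay higher after bypass than lay lower, against both sham groups, and few single genes passed the test. In RYGB against Sham AL, Adgre1 alone rose (1 of 35 genes, where 0.938% of all genes were called higher) and 0 fell (0.442% of all genes were called lower). Against BWm, Mmp12, Lgals3, Cd9 and Cd68 rose after bypass (4 of 35, where 4.02% of all genes were called higher) and 0 fell (2.34%). Weight matching gave 3 calls against Sham AL: Cd163 rose (1 of 35, with 1.53% of all genes called higher) and Lgals3 and Ly6c2 fell (2 of 35, with 1.3% called lower). Calls are at an adjusted p under 0.05 in 1 limma fit over all 15 arrays, with Benjamini-Hochberg adjustment over the 22180 genes. In the bulk samples, fewer cells of a type and less RNA per cell cannot be told apart. Without Sham AL replicate 4 the called members numbered 0, 4 and 1 in the order of these comparisons.

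The differences of the members, small as most were, pointed one way in both comparisons with bypass. In RYGB against Sham AL the median log2 fold change over the 35 genes was 0.34, against 0 over all genes, and 32 of 35 lay above 0, against 49.2% of all genes. The median was 0.42 in RYGB against BWm, against 0 over all genes, and 33 of 35 lay above 0, against 50.3% of all genes. For BWm against Sham AL the median was -0.15, against -0.01 over all genes, and 12 of 35 lay above 0, against 47% of all genes. Both bypass comparisons use the same RYGB arrays, so their agreement is not independent, and the genes of a list vary together across arrays.

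At an unadjusted p under 0.05, 16 of the 35 genes were higher and 0 lower in RYGB against Sham AL, where 7.66% and 5.28% of all genes were. For RYGB against BWm these numbers were 21 higher and 0 lower, where 10.6% and 7.73% of all genes were. Between BWm and Sham AL 2 were higher and 6 lower, where 7.48% and 7.8% of all genes were, so that the count of higher members was near that of the background. A stricter view asks that all arrays of one group lie beyond all of the other. That held for 0 of 35 members in RYGB against Sham AL (1.58% of all genes higher, 0.812% lower). It held for 4 members in RYGB against BWm, all higher, namely Mmp12, Lgals3, Cd68 and C1qb (4.71% of all genes higher, 2.91% lower). It held for 2 members in BWm against Sham AL, both lower, namely Ly6c2 and Cd52, and for 0 higher (3.39% of all genes lower, 3.46% higher).

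**Figure D1:**
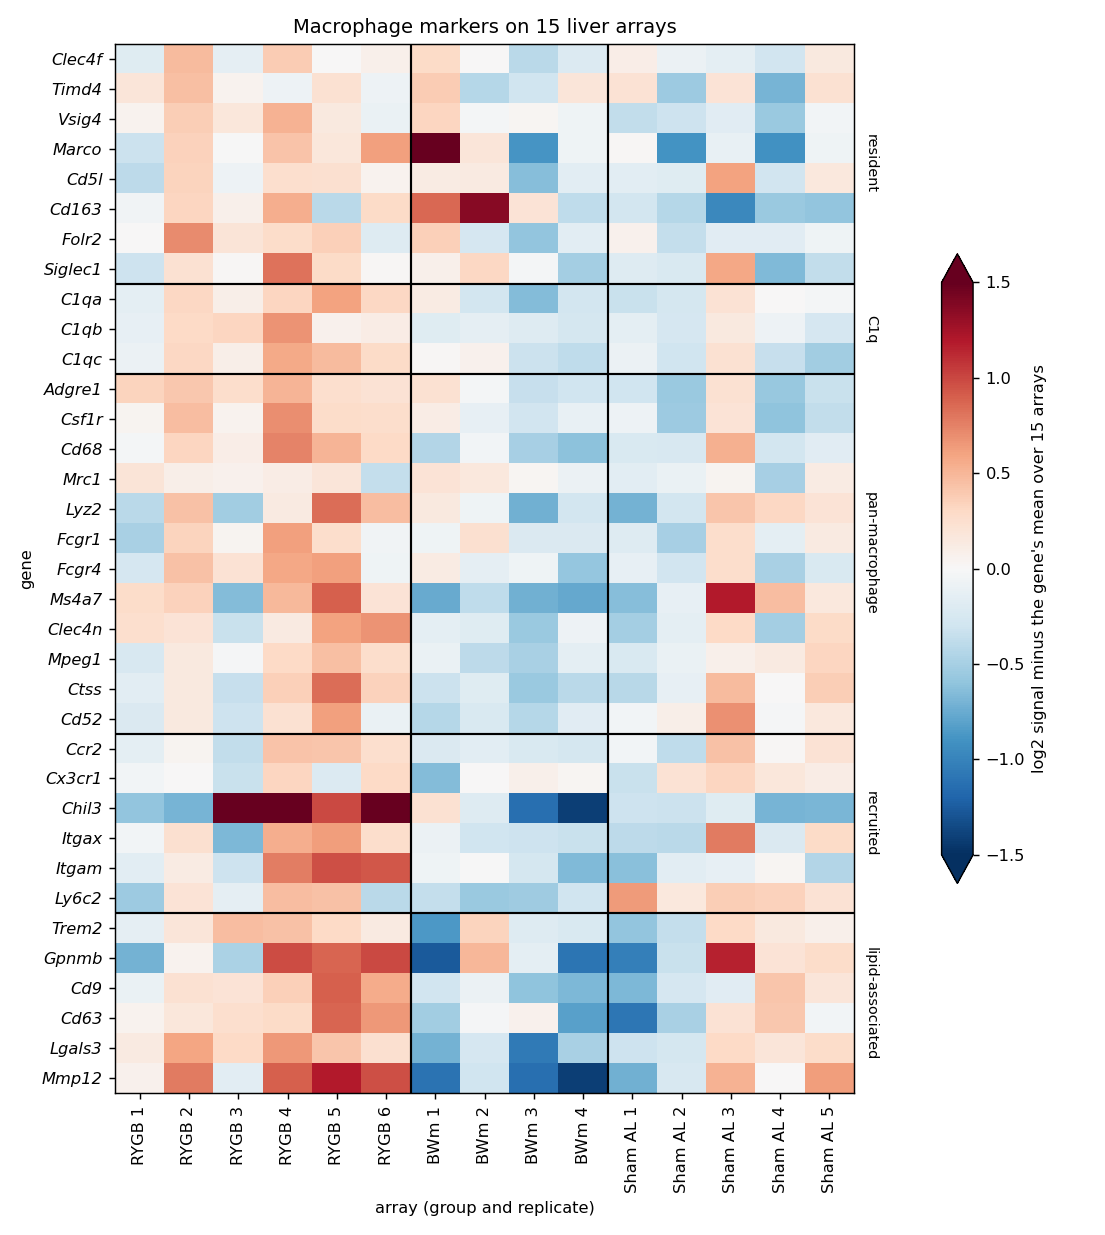
Log2 signal of the 35 macrophage genes (rows, by role) on the 15 arrays (columns, RYGB left, then BWm, then Sham AL), as the difference from the mean of each gene over all arrays; red is higher, blue lower, and the colour scale ends at 1.5 either way. RYGB replicates 2, 4, 5 and 6 are red in most rows. BWm replicates 3 and 4 and Sham AL replicates 1 and 2 are blue in most rows. Sham AL replicate 3 is redder than the other Sham AL arrays.

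**Figure D2:**
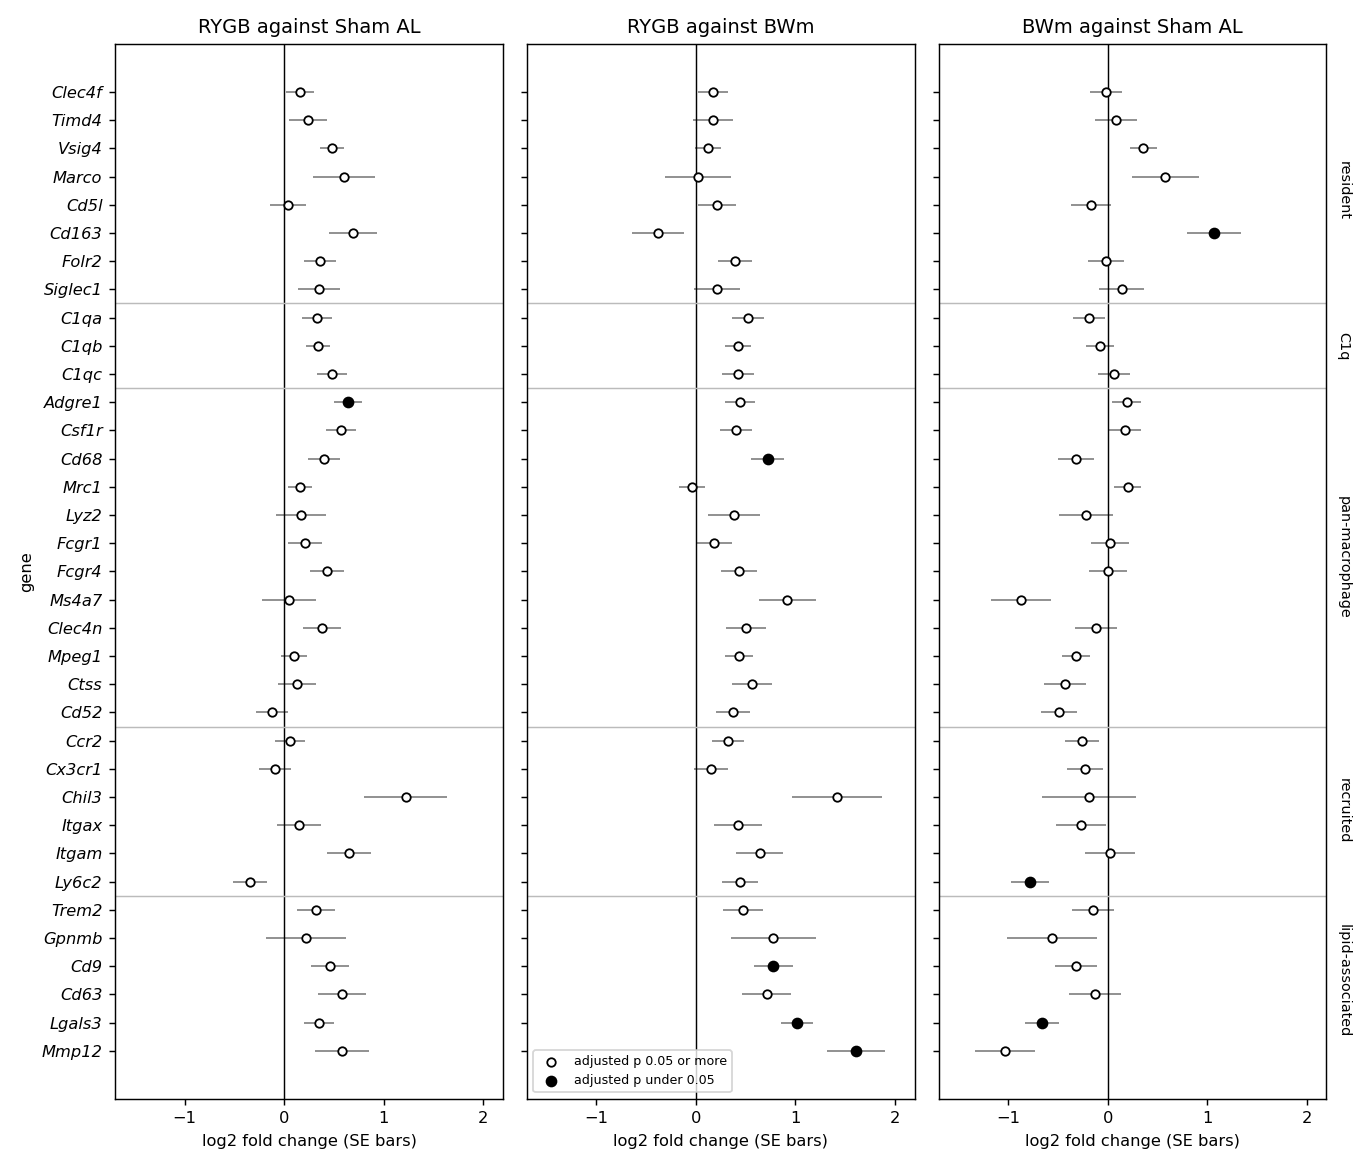
Log2 fold change (x axis) with its SE (bars) for each of the 35 genes (y axis, by role) in RYGB against Sham AL, RYGB against BWm and BWm against Sham AL, from 1 limma fit; filled points have an adjusted p under 0.05. The lipid-associated genes at the bottom lie right of 0 in both comparisons with bypass and left of 0 in BWm against Sham AL, while the resident genes at the top lie between -0.38 and 0.39 in RYGB against BWm.

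The 250 bases upstream of the gene start are shown for 6 genes that have an entry in the promoter table. These were called in RYGB against BWm or in BWm against Sham AL. The sequences are those of RefSeq on GRCm38.p6, 5′ to 3′ on the strand of the gene. Mmp12 lies at chr9:7344147-7344396 on the plus strand, Lgals3 at chr14:47373610-47373859 on the plus strand and Cd9 at chr6:125494761-125495010 on the minus strand. Cd68 lies at chr11:69666171-69666420 on the minus strand, Cd163 at chr6:124304401-124304650 on the plus strand and Ly6c2 at chr15:75111972-75112221 on the minus strand. Capitals mark matches, on either strand, to GGAAGT, a core sequence bound by the ETS family to which the macrophage factor PU.1 belongs, or to TGANTCA, the site of AP-1.
Mmp12: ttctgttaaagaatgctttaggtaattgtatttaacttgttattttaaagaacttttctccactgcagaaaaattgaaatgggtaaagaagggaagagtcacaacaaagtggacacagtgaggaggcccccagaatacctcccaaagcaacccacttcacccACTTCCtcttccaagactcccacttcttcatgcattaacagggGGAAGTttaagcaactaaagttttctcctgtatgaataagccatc
Lgals3: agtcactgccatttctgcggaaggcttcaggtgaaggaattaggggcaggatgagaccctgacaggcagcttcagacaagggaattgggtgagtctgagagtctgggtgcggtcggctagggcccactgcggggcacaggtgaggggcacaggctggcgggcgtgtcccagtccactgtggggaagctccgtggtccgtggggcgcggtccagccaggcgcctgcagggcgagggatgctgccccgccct
Cd9: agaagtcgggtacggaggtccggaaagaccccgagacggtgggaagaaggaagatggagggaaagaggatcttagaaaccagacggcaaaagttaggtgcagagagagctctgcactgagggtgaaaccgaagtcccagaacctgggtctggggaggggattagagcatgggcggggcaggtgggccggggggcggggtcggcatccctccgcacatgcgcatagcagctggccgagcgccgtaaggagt
Cd68: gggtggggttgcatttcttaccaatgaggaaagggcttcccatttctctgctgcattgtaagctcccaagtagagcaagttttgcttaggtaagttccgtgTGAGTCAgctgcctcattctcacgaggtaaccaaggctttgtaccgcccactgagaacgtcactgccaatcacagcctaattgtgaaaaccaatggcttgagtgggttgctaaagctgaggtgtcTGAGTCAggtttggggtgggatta
Cd163: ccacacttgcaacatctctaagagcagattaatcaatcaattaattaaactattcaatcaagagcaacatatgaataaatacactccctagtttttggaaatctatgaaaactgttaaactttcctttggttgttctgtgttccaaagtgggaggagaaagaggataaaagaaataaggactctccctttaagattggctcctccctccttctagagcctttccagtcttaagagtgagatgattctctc
Ly6c2: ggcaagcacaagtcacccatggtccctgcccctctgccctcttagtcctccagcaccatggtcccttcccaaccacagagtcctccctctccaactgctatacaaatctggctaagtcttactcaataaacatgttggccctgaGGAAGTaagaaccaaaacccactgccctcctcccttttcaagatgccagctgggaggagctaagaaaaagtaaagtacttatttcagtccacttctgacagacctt

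GGAAGT was found in the window of 16 of the 29 measured members that the promoter table holds, against 19.9% of all 27025 genes of that table. In Mmp12 it begins 88 and 45 bases before the start, and in Ly6c2 106 bases before it. TGANTCA was found in 3 of 29 members, Cd68, Itgax and Trem2, against 6.85% of all genes, and in Cd68 it begins 149 and 24 bases before the start. CACGTG, the E-box bound by the lysosomal regulators of the TFEB family, was found in 0 of 29, against 6.04% of all genes. Both strands were searched, and no match overlaps another in the windows shown. The motifs were chosen after these windows had been looked at, and a match describes letters, not a site in use. Adgre1, C1qa, Csf1r, Cd52, Clec4n and Siglec1 are not in the promoter table.

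Of the 8 resident Kupffer cell genes, Cd163 passed the test, in BWm against Sham AL. In RYGB against Sham AL 8 of 8 lay above 0 and 3 had an unadjusted p under 0.05, in RYGB against BWm 7 lay above 0 and 1 had such a p, and 0 passed the test in either. Clec4f, a lectin that in mice is close to specific for Kupffer cells, had a median of 8.36 on RYGB arrays (8.15 to 8.8), with 8.62, 8.33, 7.93 and 8.12 on BWm arrays and 8.43, 8.24, 8.18, 8.04 and 8.47 on Sham AL arrays. The 3 groups overlapped over most of their range. Its log2 fold change was 0.16 ± 0.14 (SE) in RYGB against Sham AL, 0.17 ± 0.15 in RYGB against BWm and -0.02 ± 0.16 in BWm against Sham AL, with limma adjusted p of 0.71, 0.63 and 0.97.

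Timd4, the receptor for phosphatidylserine on dying cells that marks long-lived Kupffer cells, had a median of 6.47 on RYGB arrays (6.28 to 6.8). It measured 6.73, 5.93, 6.05 and 6.54 on BWm arrays and 6.57, 5.81, 6.56, 5.66 and 6.58 on Sham AL arrays. Both sham groups split into arrays above 6.5 and arrays near or below 6, and the RYGB arrays lay inside the sham range but for RYGB replicate 2, just above it. The log2 fold change of Timd4 was 0.24 ± 0.19 in RYGB against Sham AL, 0.17 ± 0.2 in RYGB against BWm and 0.08 ± 0.21 in BWm against Sham AL (limma adjusted p of 0.65, 0.75 and 0.91).

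Vsig4, the complement receptor with which Kupffer cells take up opsonised bacteria, had a median of 8.6 on RYGB arrays (8.34 to 8.96). On BWm arrays it measured 8.76, 8.41, 8.47 and 8.37, and on Sham AL arrays 8.07, 8.13, 8.26, 7.88 and 8.4. The RYGB and BWm arrays lay at the top of the Sham AL range or above it. Against Sham AL the log2 fold change was 0.48 ± 0.12 for RYGB and 0.36 ± 0.14 for BWm, with limma adjusted p of 0.063 and 0.19, and it was 0.12 ± 0.13 in RYGB against BWm (adjusted p = 0.7).

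Cd163, the receptor for haemoglobin bound to haptoglobin, was highest in the weight-matched group. It measured 5.45, 5.95, 4.79 and 4.2 on BWm arrays, against 4.31, 4.16, 3.62, 4.03 and 4 on Sham AL arrays. BWm replicates 1 to 3 lay above every Sham AL array, and BWm replicate 4 lay among them. The gene was 2.1-fold higher in BWm than in Sham AL (log2 1.07 ± 0.27 SE, limma adjusted p = 0.036), and the adjusted p was 0.055 without Sham AL replicate 4. On RYGB arrays it had a median of 4.76 (4.18 to 5.13), between both sham groups, with a log2 fold change of 0.69 ± 0.24 against Sham AL (adjusted p = 0.2) and -0.38 ± 0.26 against BWm (adjusted p = 0.49). Leaving out 1 of 7 single arrays ended the call of Cd163, and without BWm replicate 2 the log2 fold change was 0.79 (adjusted p = 0.14).

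The other resident genes did not pass the test in any comparison. Marco, a scavenger receptor for bacteria, spread widest, with 7.98, 6.66, 5.6 and 6.42 on BWm arrays against 5.57 to 6.5 on Sham AL arrays, and its log2 fold change was 0.58 ± 0.34 (adjusted p = 0.46). Between RYGB and Sham AL, Marco measured log2 0.6 ± 0.31 (adjusted p = 0.44). Cd5l, a secreted protein of tissue macrophages, Folr2, a folate receptor, and Siglec1, a receptor for sialic acid, had log2 fold changes between 0.04 and 0.36 in RYGB against Sham AL. Over the 8 resident genes the median log2 fold change was 0.36, 0.17 and 0.11 in RYGB against Sham AL, RYGB against BWm and BWm against Sham AL. Without Sham AL replicate 4 it was 0.29 in RYGB against Sham AL, and in BWm against Sham AL it was -0.01, so that the sign there rests on that array.

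The 3 genes of C1q, the first component of the classical complement pathway, which macrophages make in the liver, lay higher on RYGB arrays than on those of either sham group without passing the test. C1qb measured 9.3 to 10.1 on RYGB arrays (median 9.64) and 9.25, 9.29, 9.23 and 9.16 on BWm arrays, so that these groups did not overlap, and 9.28, 9.18, 9.57, 9.35 and 9.18 on Sham AL arrays. RYGB replicate 1 exceeded the highest BWm array by little. The log2 fold change was 0.42 ± 0.13 in RYGB against BWm and 0.34 ± 0.12 in RYGB against Sham AL (limma adjusted p of 0.069 and 0.22). C1qa measured 7.38 to 8.13 on RYGB arrays (median 7.84), 7.65, 7.25, 6.88 and 7.25 on BWm arrays and 7.2, 7.26, 7.74, 7.54 and 7.5 on Sham AL arrays. C1qc measured 7.24 to 7.9 on RYGB arrays (median 7.63), 7.35, 7.39, 7.01 and 6.95 on BWm arrays and 7.24, 7.03, 7.55, 6.98 and 6.8 on Sham AL arrays. For both genes RYGB replicate 1 was the lowest of its group and lay within the range of the sham arrays. The log2 fold changes in RYGB against BWm were 0.52 ± 0.16 for C1qa and 0.42 ± 0.16 for C1qc (adjusted p of 0.06 and 0.13), and in RYGB against Sham AL 0.33 ± 0.15 and 0.48 ± 0.15 (adjusted p of 0.35 and 0.13).

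Among the 12 genes shared by most macrophages, Adgre1 rose in RYGB against Sham AL and Cd68 in RYGB against BWm. Adgre1, the adhesion receptor commonly used to mark mouse macrophages, measured 7.05, 7.12, 6.98, 7.22, 6.97 and 6.93 on RYGB arrays. It measured 6.94, 6.69, 6.37 and 6.41 on BWm arrays and 6.41, 6.16, 6.94, 6.14 and 6.38 on Sham AL arrays. The RYGB arrays lay close together, and 5 of 6 lay above every Sham AL array. Sham AL replicate 3 stood above the rest of its group, level with the lowest RYGB array. Adgre1 was 1.55-fold higher in RYGB than in Sham AL (log2 0.64 ± 0.14 SE, limma adjusted p = 0.025). Against BWm its log2 fold change was 0.44 ± 0.15 (adjusted p = 0.089). The call did not hold in 6 of 15 fits that left out 1 array (RYGB replicates 2 and 4, Sham AL replicates 1, 2, 4 and 5), where the adjusted p reached at most 0.094. It was 0.058 without Sham AL replicate 4.

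Csf1r, the receptor for the growth factor on which macrophages depend, measured 8.19 to 8.85 on RYGB arrays (median 8.42). It measured 8.26, 8.03, 7.86 and 8.04 on BWm arrays and 8.08, 7.61, 8.36, 7.55 and 7.78 on Sham AL arrays. The lower RYGB arrays overlapped with BWm replicate 1 and Sham AL replicate 3. The log2 fold change was 0.57 ± 0.15 in RYGB against Sham AL (limma adjusted p = 0.075) and 0.4 ± 0.16 in RYGB against BWm (adjusted p = 0.17).

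Cd68, a lysosomal glycoprotein of phagocytes, measured 8.77, 9.12, 8.89, 9.54, 9.31 and 9.09 on RYGB arrays. It measured 8.36, 8.75, 8.3 and 8.18 on BWm arrays and 8.57, 8.56, 9.33, 8.52 and 8.63 on Sham AL arrays. All RYGB arrays lay above all BWm arrays, by little for RYGB replicate 1 and BWm replicate 2. Sham AL replicate 3 stood well above the other arrays of its group. The gene was 1.65-fold higher in RYGB than in BWm (log2 0.72 ± 0.17 SE, limma adjusted p = 0.016), and without BWm replicate 3 or 4 the adjusted p was 0.057 and 0.058. Against Sham AL its log2 fold change was 0.4 ± 0.16 (adjusted p = 0.29).

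Ms4a7, a membrane protein of macrophages, was low in the weight-matched group, with 4.36, 4.73, 4.39 and 4.34 on BWm arrays, against 4.46 to 6.01 on RYGB arrays (median 5.42) and 4.47, 4.99, 6.3, 5.58 and 5.27 on Sham AL arrays. A single array of RYGB (replicate 3) and of Sham AL (replicate 1) reached down to the BWm range. The log2 fold change was 0.92 ± 0.29 in RYGB against BWm (limma adjusted p = 0.066) and -0.87 ± 0.3 in BWm against Sham AL (adjusted p = 0.14). Between RYGB and Sham AL it was 0.05 ± 0.27 (adjusted p = 0.96).

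The other 8 genes of this group were not called in any comparison. They are Mrc1, the mannose receptor, which sinusoidal endothelium also makes, Lyz2, a lysozyme, the immunoglobulin receptors Fcgr1 and Fcgr4, the lectin Clec4n, the pore-forming protein Mpeg1, the protease Ctss and the small surface protein Cd52. Their log2 fold changes in RYGB against BWm ran between -0.04 (Mrc1) and 0.56 (Ctss). Between BWm and Sham AL, Cd52 measured 6.08 to 6.33 on BWm arrays against 6.46 to 7.19 on Sham AL arrays, with no overlap, and its log2 fold change of -0.49 ± 0.18 had a limma adjusted p of 0.16. Probes of Lyz2 can share signal with the near-identical Lyz1.

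Of the 6 genes of recruited monocytes and adhesion, Ly6c2 passed the test, as lower in BWm than in Sham AL. Ly6c2, a surface protein of inflammatory monocytes whose probes can share signal with Ly6c1, measured 5.26, 5.06, 5.08 and 5.32 on BWm arrays. Sham AL arrays measured 6.26, 5.77, 5.99, 5.96 and 5.83. The groups did not overlap, and the gene was 1.72-fold lower in BWm (log2 -0.78 ± 0.19 SE, limma adjusted p = 0.028). The RYGB arrays, with 5.07, 5.82, 5.48, 6.08, 6.06 and 5.21, spanned both. The log2 fold change of RYGB was 0.44 ± 0.18 against BWm (adjusted p = 0.18) and -0.34 ± 0.17 against Sham AL (adjusted p = 0.41). The call of Ly6c2 in BWm against Sham AL did not hold without Sham AL replicate 1 or 3 or without BWm replicate 1, 2 or 3 (adjusted p of at most 0.097).

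Chil3, a secreted chitinase-like protein of activated macrophages and neutrophils, split the RYGB group. It measured 2.75, 2.64, 5.19, 4.86, 4.33 and 4.97 on RYGB arrays, 3.56, 3.14, 2.21 and 1.92 on BWm arrays and 3.03, 3.01, 3.16, 2.64 and 2.65 on Sham AL arrays. RYGB replicates 3 to 6 lay above every sham array, whereas RYGB replicates 1 and 2 lay within the sham range. The mean difference was log2 1.42 ± 0.45 against BWm and 1.22 ± 0.42 against Sham AL, with limma adjusted p of 0.073 and 0.2. The sham values lay below the array medians, signal over background was not measured, and probes can share signal with Chil4, so the sizes are uncertain.

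The chemokine receptors Ccr2, which brings monocytes out of the marrow, and Cx3cr1, which patrolling monocytes carry, differed little between RYGB and Sham AL. Their log2 fold changes were 0.06 ± 0.15 and -0.09 ± 0.16 (limma adjusted p of 0.92 and 0.87). Ccr2 measured 3.83 to 4.65 on all arrays, near the array medians of 3.89 to 4.02. Signal over background was not measured, so a difference in Ccr2 could go unseen. The integrin genes Itgam and Itgax, whose products mark myeloid and dendritic cells, measured log2 0.65 ± 0.22 and 0.15 ± 0.22 in the same comparison (adjusted p of 0.19 and 0.84). In RYGB against BWm, Ccr2 measured log2 0.32 ± 0.16 and Cx3cr1 0.15 ± 0.17 (adjusted p of 0.32 and 0.74). There Itgam measured 0.64 ± 0.24 and Itgax 0.42 ± 0.24 (adjusted p of 0.14 and 0.38). Over the 6 genes the median log2 fold change was 0.1 in RYGB against Sham AL, 0.43 in RYGB against BWm and -0.25 in BWm against Sham AL.

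The lipid-associated genes showed the widest separation, between bypass and weight matching: Mmp12, Lgals3 and Cd9 rose in RYGB against BWm, 3 of the 6 measured. Mmp12, the macrophage elastase, measured 7.24, 7.96, 7.02, 8.07, 8.37 and 8.14 on RYGB arrays. It measured 6.07, 6.88, 6.04 and 5.76 on BWm arrays and 6.46, 6.94, 7.7, 7.18 and 7.8 on Sham AL arrays. Every RYGB array lay above every BWm array, and the Sham AL arrays lay between, overlapping with both. Mmp12 was 3.05-fold higher in RYGB than in BWm (log2 1.61 ± 0.29 SE, limma adjusted p = 0.0021), and the call held in all 15 fits that left out 1 array, with an adjusted p of at most 0.011. In BWm against Sham AL its log2 fold change was -1.03 ± 0.3 (adjusted p = 0.081), and in RYGB against Sham AL 0.58 ± 0.27 (adjusted p = 0.38).

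Lgals3, the sugar-binding protein galectin-3 of activated macrophages, measured 5.45, 5.9, 5.61, 5.97, 5.73 and 5.55 on RYGB arrays. It measured 4.61, 5.06, 4.25 and 4.83 on BWm arrays and 5, 5.05, 5.61, 5.5 and 5.59 on Sham AL arrays. The RYGB and BWm arrays did not overlap, and 3 of 4 BWm arrays lay below every Sham AL array. Lgals3 was 2.02-fold higher in RYGB than in BWm (log2 1.02 ± 0.16 SE, limma adjusted p = 0.00086), a call that held in all 15 fits without 1 array (adjusted p of at most 0.0051). It was 1.58-fold lower in BWm than in Sham AL (log2 -0.66 ± 0.17 SE, adjusted p = 0.044), a call lost in 10 of those 15 fits, where the adjusted p reached at most 0.17, with 0.083 without Sham AL replicate 4. Between RYGB and Sham AL the log2 fold change was 0.35 ± 0.15 (adjusted p = 0.33). Both calls rest on the same BWm arrays.

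Cd9, a tetraspanin of many cell types that is abundant on lipid-associated macrophages, measured 6.55, 6.88, 6.86, 7.01, 7.54 and 7.21 on RYGB arrays. It measured 6.36, 6.56, 6.05 and 5.97 on BWm arrays and 5.97, 6.4, 6.48, 7.07 and 6.83 on Sham AL arrays. RYGB replicate 1 fell just short of BWm replicate 2, and the other 5 RYGB arrays lay above all BWm arrays. Cd9 was 1.71-fold higher in RYGB than in BWm (log2 0.78 ± 0.2 SE, limma adjusted p = 0.026). Without RYGB replicate 5 or 6, or without BWm replicate 3 or 4, it was not called (adjusted p of at most 0.094). With the mean of both Cd9 clusters, of which the second averaged 3.66 against 6.65 for the one used, the log2 fold change was 0.33 (adjusted p = 0.11).

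Trem2, the lipid receptor that names this macrophage state, measured 5.88 to 6.48 on RYGB arrays (median 6.26), 5.15, 6.35, 5.82 and 5.79 on BWm arrays and 5.42, 5.66, 6.32, 6.16 and 6.09 on Sham AL arrays. The groups overlapped, with BWm replicate 2 near the top of the RYGB range. Its log2 fold change was 0.47 ± 0.2 in RYGB against BWm, 0.32 ± 0.19 in RYGB against Sham AL and -0.15 ± 0.21 in BWm against Sham AL (limma adjusted p of 0.22, 0.52 and 0.81). Gpnmb, a lysosomal glycoprotein, measured 6.62, 7.38, 6.86, 8.31, 8.21 and 8.32 on RYGB arrays, 6.07, 7.83, 7.19 and 6.23 on BWm arrays and 6.31, 7, 8.49, 7.54 and 7.61 on Sham AL arrays. Arrays of 1 group differed by more than the group means did, and the highest value of all was that of Sham AL replicate 3. Its log2 fold change was 0.78 ± 0.43 in RYGB against BWm, 0.22 ± 0.4 in RYGB against Sham AL and -0.56 ± 0.45 in BWm against Sham AL (adjusted p of 0.36, 0.87 and 0.61). Cd63, a further tetraspanin of lysosomes, measured log2 0.71 ± 0.25 in RYGB against BWm (adjusted p = 0.11). Over the 6 lipid-associated genes the median log2 fold change was 0.41 in RYGB against Sham AL, 0.78 in RYGB against BWm and -0.44 in BWm against Sham AL, where 0 of 6 lay above 0.

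**Figure D3:**
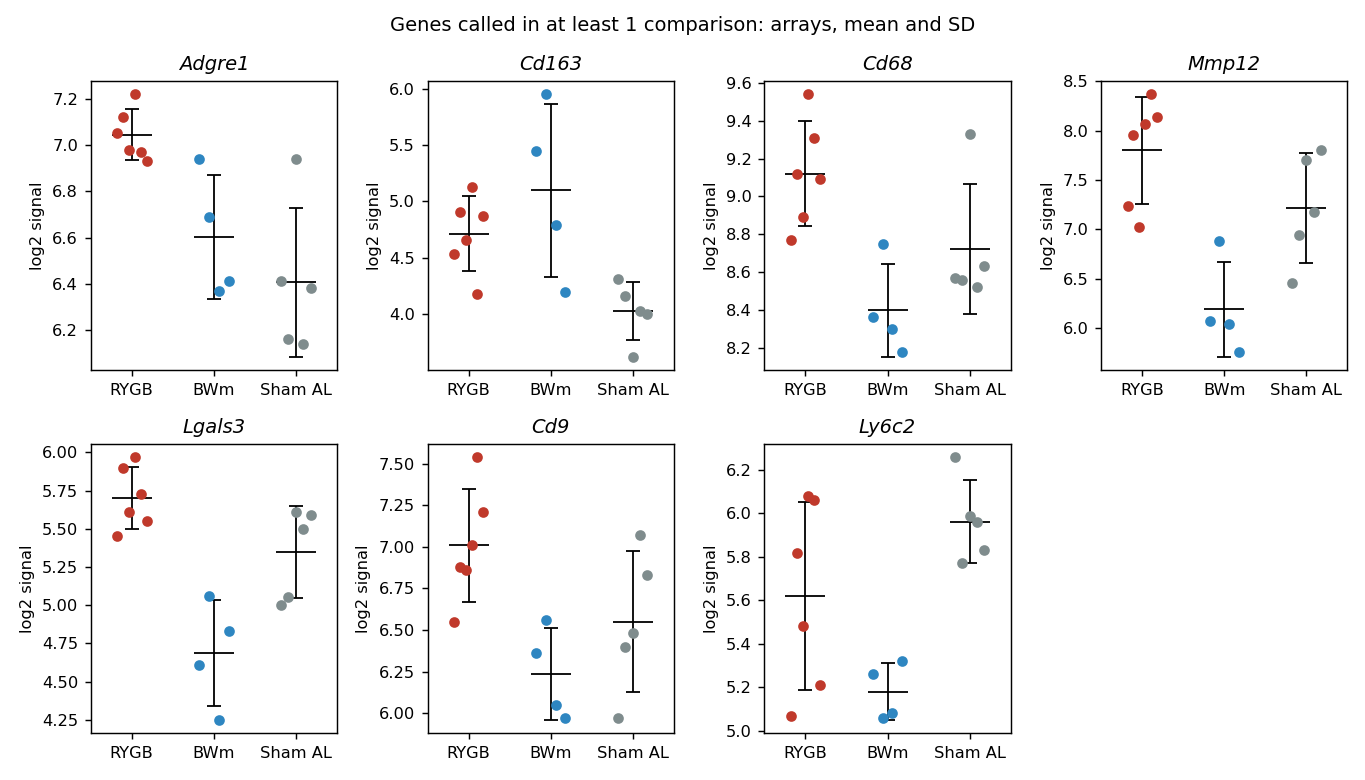
Log2 signal (y axis) of the 7 genes called in at least 1 comparison, by group (x axis: RYGB, BWm, Sham AL); points are arrays, the horizontal line is the group mean and the bars are the SD. For Mmp12, Lgals3 and Cd68 all RYGB points lie above all BWm points, for Ly6c2 all BWm points lie below all Sham AL points, and for Adgre1 the RYGB points sit between 6.93 and 7.22.

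Set side by side, the resident genes Clec4f, Timd4 and Vsig4 differed less between bypass and weight matching than Trem2, Gpnmb and Mmp12. The latter, called the Trem2 set here, are all lipid-associated genes, and none is among the 6 genes of recruited monocytes and adhesion. The mean log2 fold change in RYGB against BWm was 0.16 over these resident genes and 0.95 over the Trem2 set. Within that set Mmp12 measured 1.61, Gpnmb 0.78 and Trem2 0.47, and Mmp12 alone was called. Over the 6 genes of recruited monocytes and adhesion the mean was 0.56. In RYGB against Sham AL the means of the resident genes and the Trem2 set were 0.29 and 0.37, and in BWm against Sham AL 0.14 and -0.58. Leaving out Sham AL replicate 4 gave 0.2 and 0.4 in RYGB against Sham AL, and 0.05 and -0.55 in BWm against Sham AL. The median of these resident genes in BWm against Sham AL was 0.08 and turned to -0.07 without that array. It also turned below 0 without Sham AL replicate 2 or without BWm replicate 1. The difference between both sets was not tested, since the genes were chosen with results known. On single arrays, relative to the mean over all 15 arrays, the resident genes averaged 0.14 ± 0.18 on RYGB, -0.02 ± 0.24 on BWm and -0.15 ± 0.25 on Sham AL arrays (SD, n = 6, 4 and 5). The Trem2 set averaged 0.38 ± 0.45, -0.58 ± 0.56 and 0 ± 0.56 in the same order.

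The Trem2 set varied more from mouse to mouse than the resident set in every group. BWm replicate 1 was highest of its group in the resident genes, at 0.33, and lowest of all arrays in the Trem2 set, at -1.08. Sham AL replicate 4 was lowest of all arrays in the resident genes, at -0.51, with 0.12 in the Trem2 set. The resident mean minus that of the Trem2 set ran from -0.73 to 0.28 over RYGB arrays and from -0.33 to 1.41 over BWm arrays. Over Sham AL arrays this difference ran from -0.7 to 0.76, so that all groups overlapped. The group means of the difference were -0.24 ± 0.44, 0.56 ± 0.75 and -0.16 ± 0.59 in that order.

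**Figure D4:**
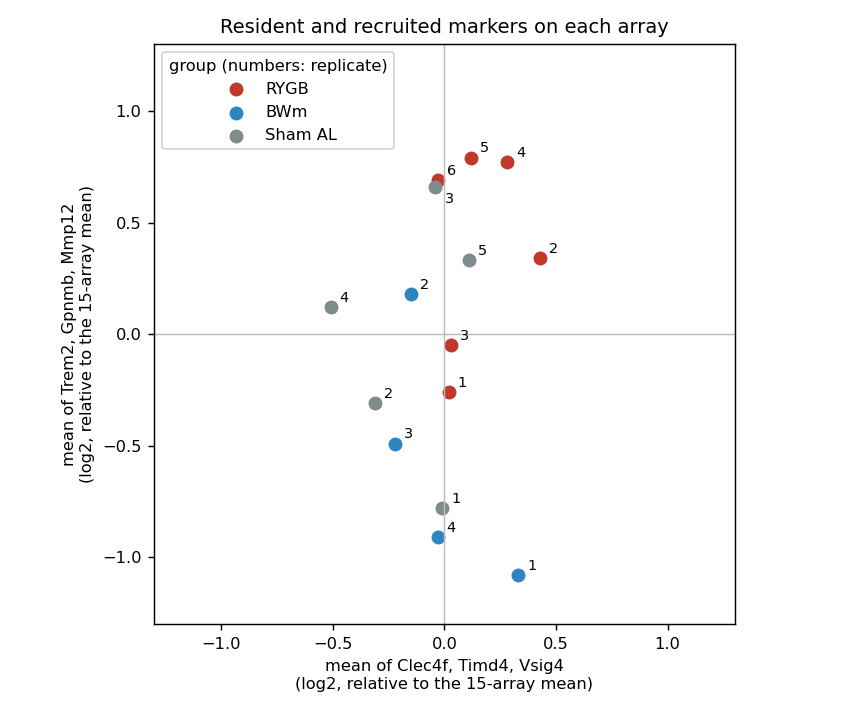
Each point is 1 array, with the mean of the resident genes Clec4f, Timd4 and Vsig4 on the x axis and that of Trem2, Gpnmb and Mmp12 on the y axis, both as log2 signal relative to the mean over all 15 arrays; numbers are replicates. The spread is wider along the y axis, on which 3 of 4 BWm arrays lie below 0 and RYGB replicates 4 to 6 lie between 0.69 and 0.79.

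The levels of several recruited and lipid-associated genes also moved with a number that the descriptions give each animal and whose meaning is not stated. RYGB replicates 1 to 3 carry the numbers 16, 17 and 41, and RYGB replicates 4 to 6 the numbers 81, 84 and 85. Sham AL replicate 1 carries the number 20, and all other sham arrays carry numbers over 60. On RYGB arrays numbered over 60, Gpnmb averaged 8.28 (8.21 to 8.32), against 6.95 (6.62 to 7.38) on those numbered under 50. Mmp12 averaged 8.19 against 7.41, and Itgam 5.79 against 4.79. All 3 RYGB arrays numbered over 60 lay above the other 3 for 9 of 35 members, namely Ccr2, Gpnmb, Cd9, Cd63, Mmp12, Itgax, Itgam, Mpeg1 and Ctss, and for 5.95% of all genes. They lay below them for 0 of 35 members and for 6.56% of all genes. None of the 9 is a resident gene.

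Within the arrays numbered over 60 (3 RYGB, 4 BWm and 4 Sham AL), a fit added after the data had been seen called 12 of 35 members higher and 0 lower in RYGB against BWm, Mmp12, Lgals3, Cd9, Cd68 and Gpnmb among them, where 2.81% of all genes were called higher and 1.74% lower. The log2 fold change of Mmp12 was 2 ± 0.25 there (limma adjusted p = 0.00047) and that of Gpnmb 1.44 ± 0.38 (adjusted p = 0.048). Of the groups in RYGB against BWm, this fit leaves out only RYGB replicates 1 to 3. Those lay below the other RYGB arrays for 9 of 35 members, Mmp12, Gpnmb and Cd9 among them. In the comparisons with Sham AL it also leaves out Sham AL replicate 1, the lowest Sham AL array for Mmp12 (6.46) and Ms4a7 (4.47). The split was seen in these same values, so the calls of this fit are no separate support in any comparison. In RYGB against Sham AL 2 of 35 members were called higher and 0 lower, where 0.622% and 0.334% of all genes were. They were Chil3 (log2 1.85 ± 0.32, adjusted p = 0.012) and Itgam (log2 1.06 ± 0.17, adjusted p = 0.0073), and Adgre1, at log2 0.63, was not called (adjusted p = 0.21). Between BWm and Sham AL, Mmp12 fell (log2 -1.22 ± 0.23, adjusted p = 0.017), as did Ms4a7, the 2 of 35 members called lower, with 0 called higher, where 0.906% of all genes were called lower and 1.08% higher. The numbers under 50 hold 3 RYGB arrays, 1 Sham AL array and no BWm array, so RYGB against BWm cannot be compared among them.

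**Figure D5:**
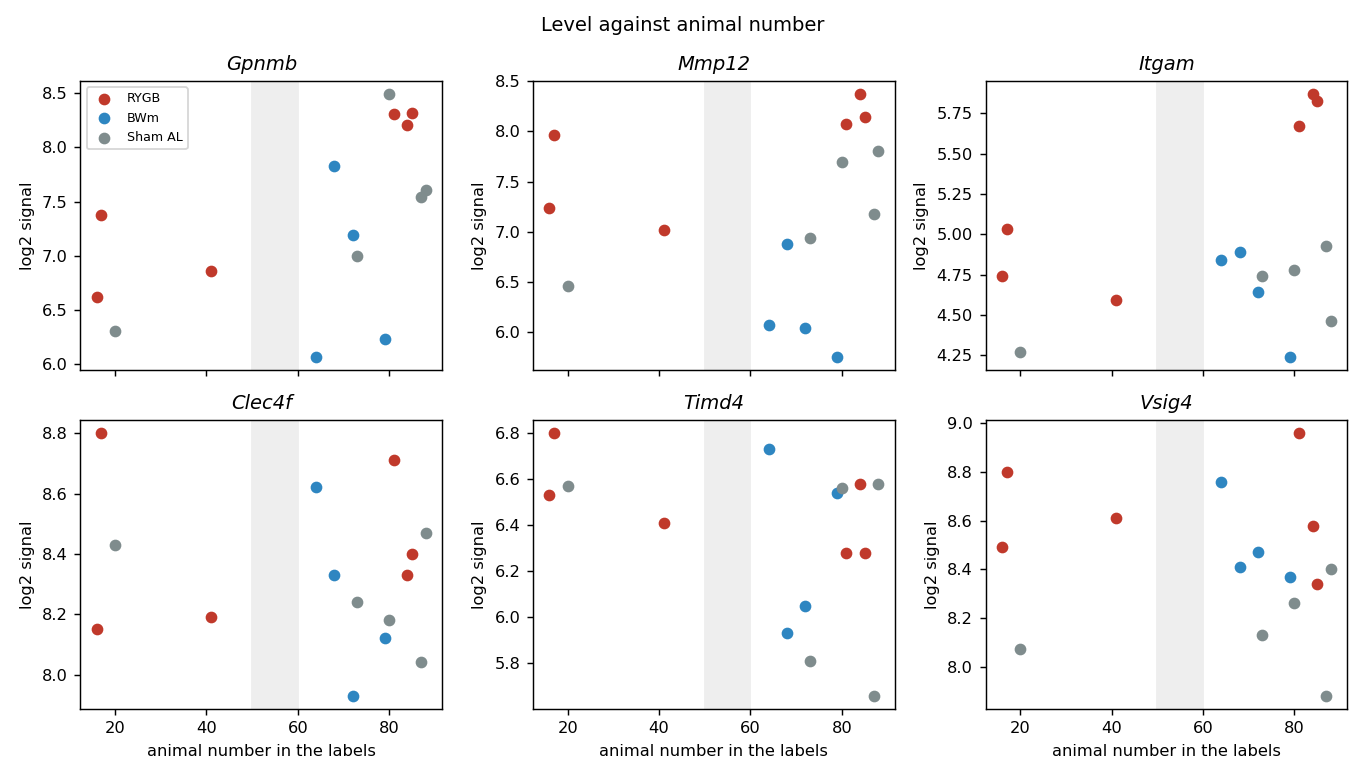
Log2 signal (y axis) of 3 recruited or lipid-associated genes (upper row) and 3 resident genes (lower row) against the animal number in the labels (x axis); points are arrays, coloured by group, and the grey band marks the gap between 50 and 60, in which no animal lies. For Gpnmb and Itgam the RYGB points numbered over 60 lie above the RYGB points numbered under 50, and for Clec4f, Timd4 and Vsig4 they overlap.

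Other macrophage genes were read on lists that were chosen with earlier results of these data known. Over all genes, 0.938% were called higher and 0.442% lower in RYGB against Sham AL. These shares were 4.02% and 2.34% in RYGB against BWm, and 1.53% and 1.3% in BWm against Sham AL. They stand beside the counts of all lists that follow. Of 19 measured genes of Kupffer cell identity and scavenging, 2 rose and 0 fell in RYGB against Sham AL, 2 rose and 0 fell in RYGB against BWm, and 1 rose and 0 fell in BWm against Sham AL. Cd14, the co-receptor for bacterial lipopolysaccharide, which hepatocytes make as well, averaged 7.54 ± 0.93 on RYGB, 4.9 ± 0.45 on BWm and 5.37 ± 0.3 on Sham AL arrays (SD, n = 6, 4 and 5). Every RYGB array, at 6.14 to 8.56, lay above every sham array, which ended at 5.62. Its log2 fold change was 2.64 ± 0.36 against BWm and 2.17 ± 0.34 against Sham AL (limma adjusted p of 0.00023 and 0.0024). Slc11a1, a metal transporter of phagosomes, rose in RYGB against Sham AL (log2 0.64 ± 0.15, adjusted p = 0.035), and the scavenger receptor gene Msr1 rose in RYGB against BWm (log2 0.82 ± 0.18, adjusted p = 0.0086). Slc40a1, the iron exporter ferroportin, rose in BWm against Sham AL (log2 0.61 ± 0.15, adjusted p = 0.039). Without Sham AL replicate 4 neither Slc11a1 (adjusted p = 0.058) nor Slc40a1 (adjusted p = 0.079) was called. Of the transcription factors on this list, Id3 measured log2 -0.02 ± 0.13, Nr1h3 0.14 ± 0.12, Spic 0.44 ± 0.2 and Maf 0.12 ± 0.15 in RYGB against Sham AL. Their adjusted p were 0.97, 0.68, 0.34 and 0.79. In RYGB against BWm they measured 0 ± 0.14, 0.08 ± 0.13, 0.56 ± 0.21 and -0.37 ± 0.16 (adjusted p of 0.99, 0.84, 0.14 and 0.2). Maf measured 0.5 ± 0.16 in BWm against Sham AL (adjusted p = 0.12).

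Of 21 growth factor and chemokine genes, 2 rose in RYGB against Sham AL, 4 rose in RYGB against BWm and 0 fell in either. In BWm against Sham AL 0 of 21 were called. At an unadjusted p under 0.05, 5 were lower and 0 higher, where 7.8% and 7.48% of all genes were. Csf1, the ligand of the receptor Csf1r, averaged 6.84 ± 0.27 on RYGB, 6.18 ± 0.12 on BWm and 6.29 ± 0.17 on Sham AL arrays. Its log2 fold change was 0.65 ± 0.14 against BWm and 0.55 ± 0.13 against Sham AL (limma adjusted p of 0.006 and 0.04), and every RYGB array lay above every BWm array. The call against Sham AL was lost without Sham AL replicate 4 (adjusted p = 0.075). Ccl9, a chemokine of myeloid cells, averaged 9.74 ± 0.13 on RYGB, 8.95 ± 0.37 on BWm and 8.97 ± 0.15 on Sham AL arrays, and the RYGB arrays did not overlap with either sham group (log2 0.79 ± 0.14 and 0.77 ± 0.13, adjusted p of 0.0018 and 0.0047). Ccl3 (log2 0.86 ± 0.22, adjusted p = 0.025) and Ccl2, the ligand of Ccr2 (log2 0.75 ± 0.22, adjusted p = 0.047), rose in RYGB against BWm.

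Of 19 lysosome and lipid handling genes, 2 rose in RYGB against Sham AL, 1 rose in RYGB against BWm, 0 were called in BWm against Sham AL and 0 fell in any. The protease gene Ctsl rose in both comparisons with bypass (log2 0.62 ± 0.14 against Sham AL and 0.52 ± 0.14 against BWm, limma adjusted p of 0.026 and 0.038), and Atp6v0d2, a subunit of the proton pump that acidifies lysosomes, rose in RYGB against Sham AL (log2 1.08 ± 0.25, adjusted p = 0.04, and 0.069 without Sham AL replicate 4). In RYGB against BWm that fit also called Lpl, the lipoprotein lipase (log2 0.93 ± 0.21, adjusted p = 0.0099), and the fatty acid carrier Fabp5 (log2 0.48 ± 0.13, adjusted p = 0.03). Of 14 monocyte genes, Cd300e rose in RYGB against Sham AL (log2 0.99 ± 0.21, adjusted p = 0.021) and 0 were called in the other comparisons. Of 20 genes common to myeloid cells, 4 rose and 1 fell in RYGB against BWm and 0 were called in the comparisons with Sham AL. Those that rose were Lcp1, Itgb2, Ly86 and Cd48, with log2 fold changes of 0.44 to 0.59, and the one that fell was the inhibitory receptor Fcgr2b (log2 -0.44 ± 0.12, adjusted p = 0.043), which sinusoidal endothelium also makes.

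In both comparisons with bypass, medians of neutrophil markers and cell cycle genes lay near those of the members or beyond. The members had 0.34 against Sham AL and 0.42 against BWm. Markers of the other cell types below had medians nearer 0 there, but for adrenal and brown fat markers in RYGB against Sham AL. The part of all these markers in the results was not tested. Of 12 neutrophil markers 0 were called in any comparison. Their median log2 fold change was 0.31 in RYGB against Sham AL and 0.37 in RYGB against BWm. At an unadjusted p under 0.05, 5 and 4 of these markers were higher, where 7.66% and 10.6% of all genes were. Their mean level spanned 3.32 to 4.15 on RYGB arrays, 3.21 to 3.54 on BWm arrays and 3.15 to 3.56 on Sham AL arrays. The defining marker Ly6g averaged 2.22, 2.55 and 2.35, below the array medians, and S100a8 averaged 3.26 ± 0.85, 2.26 ± 0.14 and 2.48 ± 0.17. Of 9 cell cycle genes 0 were called, with medians of 0.32, 0.52 and -0.27 in RYGB against Sham AL, RYGB against BWm and BWm against Sham AL. At an unadjusted p under 0.05, 1 was higher in RYGB against Sham AL and 6 in RYGB against BWm, where 7.66% and 10.6% of all genes were. The mean level of these genes was 4.19 to 5.46 on RYGB, 3.78 to 4.34 on BWm and 4.2 to 4.58 on Sham AL arrays.

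Of 10 sinusoidal endothelial markers 0 rose and 1, Fcgr2b, fell in RYGB against BWm, where their median log2 fold change was -0.31 and their mean level 7.45 to 8.11 on RYGB against 8.02 to 8.23 on BWm arrays. Of 10 hepatocyte markers, Cps1, the first enzyme of the urea cycle, rose in BWm against Sham AL (log2 0.44 ± 0.1, limma adjusted p = 0.023), and 0 were called in the comparisons with bypass. Of 10 T and NK cell markers, the granzyme gene Gzma fell in BWm against Sham AL (log2 -0.6 ± 0.16, adjusted p = 0.048, and 0.089 without Sham AL replicate 4), and 0 were called in the comparisons with bypass. Of 6 B cell, 7 dendritic cell, 8 stellate cell and 5 cholangiocyte markers, 0 were called in any comparison. Of 7 adrenal and brown fat markers, the lipid droplet gene Cidea fell in RYGB against Sham AL (log2 -2.6 ± 0.56, adjusted p = 0.024) and in BWm against Sham AL (log2 -2.67 ± 0.62, adjusted p = 0.024), and 0 were called in RYGB against BWm. It averaged 4.01 ± 0.25 on RYGB, 3.94 ± 0.24 on BWm and 6.61 ± 1.9 on Sham AL arrays (SD, n = 6, 4 and 5). Without Sham AL replicate 4 Cidea was still called, at log2 -1.85 ± 0.3 in RYGB against Sham AL (adjusted p = 0.0032) and -1.92 ± 0.33 in BWm against Sham AL (adjusted p = 0.0051).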

How the data were processed

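Liver RNA of 15 mice was hybridised to GeneChip Mouse Gene 2.0 ST arrays, 1 per mouse. Per the labels and the series' design text, the authors used Affymetrix Expression Console 1.4.1.46 to make the deposited log2 values, by robust multi-array average, for 41345 transcript clusters with no missing values. Scanner files were not used, so signal over background was not measured, and precision is limited by how many arrays there are.

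The probe table names 1 symbol for 23521 clusters, several for 1814 and none for 16010; clusters of both last kinds were left out, and the brightest cluster was taken for each of 1082 genes with several. Groups were compared as contrasts in limma 3.58.1 (R 4.3.3; lmFit and eBayes, two-sided, Benjamini-Hochberg over 22180 genes, threshold 0.05), tested on simulated data. Tables and figures were made with Python 3.11.15, pandas 2.3.3 and matplotlib 3.10.9. Promoters are from RefSeq, GRCm38.p6.

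The members and all lists were chosen with earlier results of these data known. Values by array (for some genes, the lowest, median and highest of the 6 RYGB arrays) are given for Clec4f, Timd4 and Vsig4 and for the Trem2 set. They are also given for each member called and for the 6 further members with the smallest p (Csf1r, C1qc, C1qa, Ms4a7, C1qb and Chil3). Of other lists, up to 3 called genes each and the defining markers are described. Itgam, Marco, Cd52, Cd63, Id3, Nr1h3, Spic, Maf, Cd48 and Ccl2 were named after their values were seen. Tried beside this were quantile normalization, array medians set to 0, a filter on level, the mean over a gene's clusters, fits without the third group, other variance priors (trended, trended robust), array weights, blocks for animal number and replicate, each array left out in turn, and the methods' test (one-way analysis of variance, at the authors' p of 0.05 and fold of 1.5).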

Additional observations from a re-analysis of the deposited data

Results flagged for a closer look

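In 105 sets of arrays (35 genes in 3 groups), 6 held 1 array far from the others of its group by Dixon's criterion. Chance flags about 1 in 20 such sets, so this number is near the one that chance gives. On Sham AL replicate 3, Cd68 measured 9.33, against 8.52 to 8.63 on the other Sham AL arrays, and Cd52 measured 7.19, against 6.46 to 6.66. On BWm replicate 1, Cx3cr1 measured 4.75, against 5.41 to 5.48 on the other BWm arrays, and Itgax measured 4.95, against 4.71 to 4.74. On BWm replicate 2, Ms4a7 measured 4.73, against 4.34 to 4.39. On RYGB replicate 6, Mrc1 measured 7.92, against 8.35 to 8.48 on the other RYGB arrays.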

How the results depend on the processing

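No call of a member, and no median over the 35 members, changed direction under any alternative run, but without Sham AL replicate 4 the median of the 8 resident genes in BWm against Sham AL was -0.01, against 0.11 with it. In RYGB against BWm, Mmp12 (log2 1.39 to 2.03) and Lgals3 (0.87 to 1.14) stayed called in all 26 alternatives. Without 1 array at a time, members called numbered 0 to 2 in RYGB against Sham AL, 2 to 8 in RYGB against BWm and 0 to 4 in BWm against Sham AL, and genes called 144 to 398, 930 to 1544 and 284 to 646. In the same order of comparisons, members called numbered 0, 2 and 0 with the replicate block (genes 174, 903 and 325), 3, 13 and 5 with the block for animal number (genes 380, 1497 and 785), and 0, 2 and 1 by the methods' test after Benjamini-Hochberg (genes 54, 833 and 90). The replicate block joins mice that share only a number: of 13 same-numbered pairs, 4 deviated together with a correlation over 0.1 (range -0.17 to 0.19). At the thresholds of the methods' test, members called were 5 in RYGB against Sham AL and 5 in BWm against Sham AL, and genes called were 370, 857 and 554. With genes above the median level only, members called were 3 in RYGB against Sham AL and 9 in RYGB against BWm, and genes called were 437, 1785 and 1011; fewer genes are tested there. A trended prior, a trended robust prior and array weights each called 2 members in RYGB against Sham AL (genes 359, 344 and 401). Fits on the compared groups called 7 in RYGB against BWm and 1 in BWm against Sham AL (genes 1368 and 431). Animal numbers over 60, chosen after seeing the data, called 2 members in RYGB against Sham AL and 12 in RYGB against BWm (genes 212 and 1010). With all arrays, genes called were 306, 1411 and 629. Where not said otherwise, the cause was not tested. The median log2 fold change of the members stayed between 0.28 and 0.42, 0.36 and 0.58, and -0.23 and -0.04. The mean of Clec4f, Timd4 and Vsig4 minus that of the Trem2 set stayed between -0.35 and 0.15, -1.25 and -0.51, and 0.43 and 1.01. The sign of this difference in RYGB against Sham AL is not settled. Dim genes such as Chil3 are limited by an unmeasured background.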
